A study of Homo sapiens with 8 samples.

Results

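Integrins and adhesion molecules were followed here as a set of 10 genes, taken by name from the 58219 genes listed for each library. The set holds 3 integrin α subunits (ITGA4, ITGA6 and ITGAE), 3 β subunits (ITGB1, ITGB2 and ITGB7) and 4 other surface proteins (CD44, ICAM1, MCAM and SELPLG). All 10 were among the 13129 protein-coding genes that passed the filter on low counts. The libraries came from H929 and KMS11, both established multiple myeloma (MM) lines with the t(4;14) translocation, grown in RPMI 1640 with 10% FBS. The 4 groups were H929 in ethanol, H929 in 2 µM fluvastatin, KMS11 in ethanol and KMS11 in 2 µM fluvastatin, each held for 24 h and each with 2 biological replicates, so that 8 libraries were compared. Ethanol was the solvent control. Each line stands for 1 tumour, and fluvastatin was given at 1 dose and 1 time.

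Integrins are receptors made of 1 α and 1 β subunit, and the pairing decides what the cell can bind. The α4 subunit pairs with β1 or β7 and binds fibronectin, VCAM-1 and, as α4β7, MAdCAM-1. The αE subunit pairs with β7 and binds E-cadherin, α6 pairs with β1 or β4 and binds laminin, and β2 pairs with αL and other leukocyte α subunits to bind ICAM-1 and related proteins. CD44 is the main receptor for hyaluronan, SELPLG encodes PSGL-1, the ligand of P-selectin, and MCAM (CD146) and ICAM1 (CD54) are adhesion proteins of the immunoglobulin superfamily. MM cells use such receptors to hold on to the stroma of the bone marrow. Fluvastatin is a statin, which inhibits HMG-CoA reductase, the enzyme that supplies the mevalonate pathway.

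On GRCh38, ITGA4 (chr2:181457202-181538940) and ITGA6 (chr2:172427354-172506459) lie on chromosome 2 on the plus strand, and ITGAE (chr17:3714628-3801188), ITGB1 (chr10:32887273-33005792), ITGB2 (chr21:44885953-44931989) and ITGB7 (chr12:53191323-53207282) on the minus strand. CD44 (chr11:35138882-35232402) and ICAM1 (chr19:10271093-10286615) are on the plus strand, and MCAM (chr11:119308529-119321521) and SELPLG (chr12:108621895-108633894) on the minus strand. Counts cover whole genes, with all their exons.

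Counts per library ranged from 26702515 to 41910446, of which 85.18% to 91.35% fell on protein-coding genes, and replicates differed by more than counting error in every group. The 9 plasma cell markers checked were all above 0 in every library, with a summed level of 4580 to 7971 TPM (a level scaled by gene length and library size). Most of that sum was JCHAIN, at group means of 4451 to 5763 TPM. At the threshold given below, 2 were higher and 4 lower with fluvastatin in H929, beside 22.7% and 19.3% of all genes. In ethanol 8 were lower and 0 higher in KMS11 than in H929, beside 36.4% and 35.6% of all genes. CD38, a surface marker of plasma cells, was close to 0 in KMS11, at a mean of 0.025 TPM in ethanol against 22.6 TPM in H929. Summed markers of myeloid, fibroblast and endothelial cells reached at most 0.17 TPM. The 4 T cell markers summed to 1.55 and 1.63 TPM in H929 in ethanol and to 3.42 and 4.26 TPM in H929 in fluvastatin, with CD3D and CD5 at 0 in ethanol, and to between 0.25 and 0.45 TPM in KMS11. The 5 epithelial markers summed to between 0.23 and 1.37 TPM in H929 and between 33.16 and 39.94 TPM in KMS11, most of it EPCAM. The part of these genes in the results below was not tested. In bulk RNA, a change in the number of cells that carry a transcript and a change in the transcript per cell cannot be told apart.

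The 3 promoters below were chosen to show genes with different responses: MCAM rose in both lines, ITGB1 rose in H929, and ICAM1 passed the threshold in neither. They are shown 5′ to 3′ on the strand of the gene, from RefSeq on GRCh38.p14, for the bases upstream of the start that lie outside the gene's annotated exons. Capitals mark the motif letters found by search on both strands.
MCAM (chr11:119317131-119317380, minus strand): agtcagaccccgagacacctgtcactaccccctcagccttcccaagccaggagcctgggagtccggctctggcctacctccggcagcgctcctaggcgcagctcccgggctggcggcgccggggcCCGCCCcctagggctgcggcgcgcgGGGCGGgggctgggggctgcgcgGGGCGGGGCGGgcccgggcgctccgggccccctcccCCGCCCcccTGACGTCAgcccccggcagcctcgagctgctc
ITGB1 (chr10:32958326-32958480, minus strand): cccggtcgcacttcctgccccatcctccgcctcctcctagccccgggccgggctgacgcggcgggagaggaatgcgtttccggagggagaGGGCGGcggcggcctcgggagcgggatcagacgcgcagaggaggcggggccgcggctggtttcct
ICAM1 (chr19:10270870-10271092, plus strand): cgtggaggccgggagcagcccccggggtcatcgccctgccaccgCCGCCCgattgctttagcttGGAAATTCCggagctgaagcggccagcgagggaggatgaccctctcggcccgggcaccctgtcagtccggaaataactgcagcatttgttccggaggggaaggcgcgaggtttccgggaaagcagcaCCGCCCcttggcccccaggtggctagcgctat

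The letters searched were the GC box (GGGCGG), the cyclic AMP response element (TGACGTCA), AP-1 (TGANTCA), a κB-like site (GGAAATTCC), TATA letters (TATAAA) and the CCAAT box. The MCAM stretch held 5 GC boxes, 2 of which overlap by a base, and 1 TGACGTCA that begins at base -32 from the start. The ITGB1 stretch held 1 GC box at -160. The ICAM1 stretch held 2 GC boxes and the letters GGAAATTCC at -186. The printed ITGB1 and ICAM1 stretches are 155 and 223 bases long. Their full windows of 250 bases also held GC boxes at -89 and -58 for ITGB1 and TATA letters at -30 for ICAM1. Another RefSeq promoter of ITGB1 (chr10:32935559-32935808, not printed) held TATA letters at -102, -100 and -35 and no GC box. The printed MCAM and ITGB1 stretches lie inside the gene spans given above, so they are not upstream of the whole annotated gene. Over all 35116 RefSeq promoters, windows of 250 bases held a GC box in 42.6%, TGACGTCA in 1.65%, AP-1 letters in 6.57%, GGAAATTCC in 0.413%, TATA letters in 10.7% and CCAAT in 32.0%. A match describes these letters and is not evidence of binding. Of the 10 genes, 8 had a promoter in the table, and ITGB2 and SELPLG had none there.

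The set was first ordered by its level, since levels can be compared between genes on the TPM scale. ITGB7 was the most abundant of the 10 in all 8 libraries, at 1109.66 and 804.56 TPM in H929 in ethanol, 1156.36 and 1024.97 TPM in H929 in fluvastatin, 355.55 and 404.71 TPM in KMS11 in ethanol, and 471.17 and 440.05 TPM in KMS11 in fluvastatin. The mean level of ITGB7 lay above that of at least 98.6% of the genes tested in each group. ITGB2 was at 0.52 TPM or less in every library. In H929 in ethanol the order below ITGB7 was ITGA4, CD44, ITGB1, SELPLG, ITGAE, ITGA6, ICAM1, MCAM and ITGB2 in both replicates. With fluvastatin both H929 replicates placed CD44 above ITGA4 and SELPLG above ITGB1. In KMS11 in ethanol ITGB1 and ICAM1 followed ITGB7. ITGA4 (21.98 and 21.69 TPM) lay just above ITGAE (20.86 and 19.17 TPM), and SELPLG (16.90 and 17.61 TPM) and CD44 (15.76 and 18.03 TPM) changed places between the 2 replicates, so that this pair was not separated beyond its spread.

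**Figure D1:**
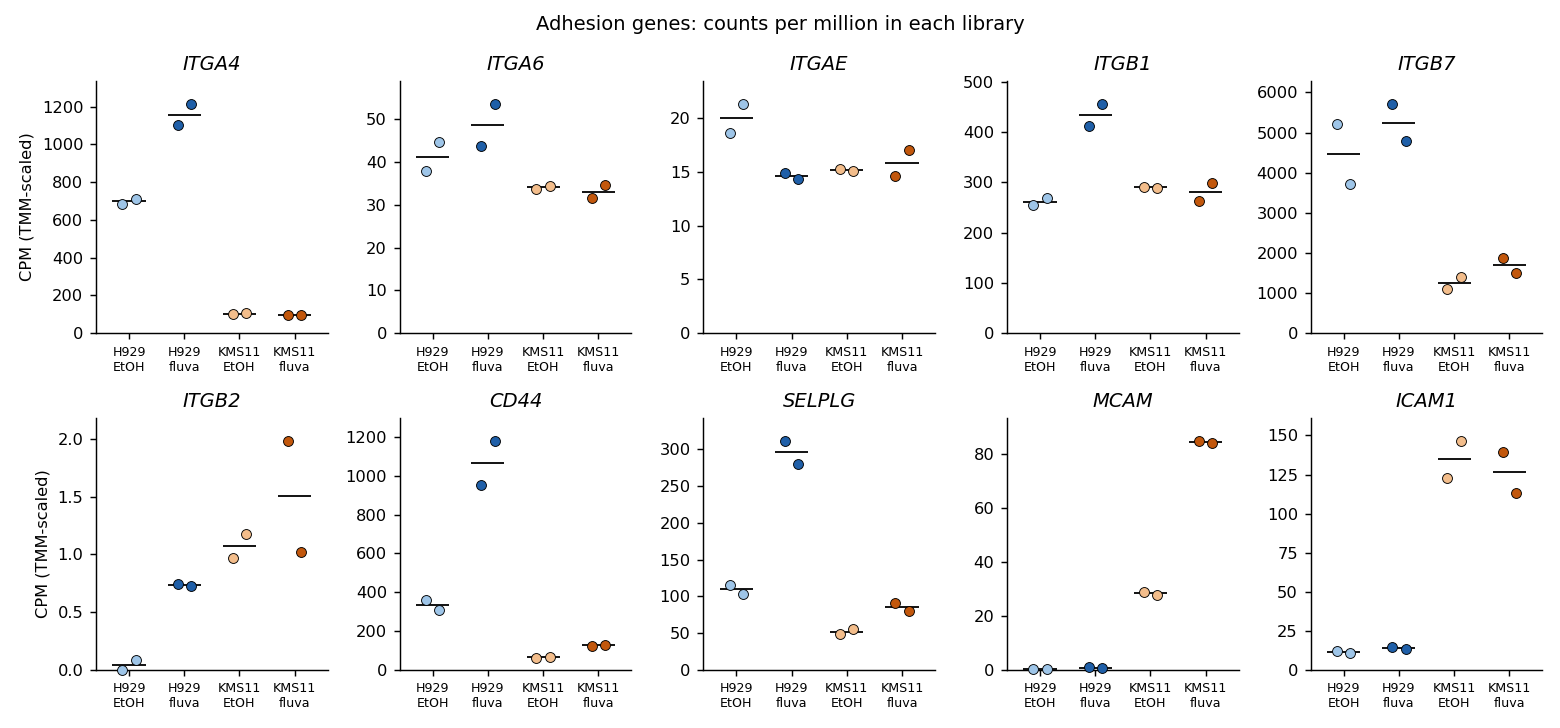
CPM scaled by TMM (y axis, linear, from 0) for the 10 adhesion genes, with a point for each library and a line at the mean of the 2 replicates of a group (EtOH, ethanol; fluva, fluvastatin). CD44 and SELPLG are above ethanol in both lines, ITGA4 and ITGB1 are above ethanol in H929, and MCAM lies near 0 in H929 beside 27.65 to 85.07 CPM in KMS11.

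CD44, SELPLG and MCAM rose with fluvastatin in both lines and in the fit across the lines. CD44 was at 358.9 and 310.2 CPM (counts scaled by library size and TMM) in H929 in ethanol and at 953.6 and 1181 CPM in fluvastatin. The KMS11 values were 61.3 and 66.71 CPM in ethanol and 123.3 and 130 CPM in fluvastatin. The groups did not overlap in either line. The log2 fold change was 1.67 ± 0.12 (SE) in H929 and 0.98 ± 0.12 in KMS11, which on mean CPM was 3.19-fold and 1.98-fold. Adjusted p was 1.186e-05 in H929 and 0.002654 in KMS11, by the quasi-likelihood F test of edgeR, adjusted over all 13129 genes after Benjamini and Hochberg with a threshold of 0.05, as for each adjusted p below.

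SELPLG, the selectin ligand, was at 116 and 103.2 CPM in H929 in ethanol and at 311.9 and 280.4 CPM in fluvastatin. In KMS11 it was at 49.01 and 54.87 CPM in ethanol and at 91.25 and 80.28 CPM in fluvastatin. Again the groups stood apart in each line, with log2 fold changes of 1.43 ± 0.11 in H929 (adjusted p = 1.541e-05) and 0.72 ± 0.11 in KMS11 (adjusted p = 0.008328). Without KMS11 ethanol replicate 1 the KMS11 calls were lost at 0.90 for CD44 (adjusted p = 0.0782) and 0.62 for SELPLG (adjusted p = 0.163), and without KMS11 ethanol replicate 2 the SELPLG call was lost at 0.78 (adjusted p = 0.0667). The changes themselves stayed between 0.90 and 1.02 for CD44 and between 0.62 and 0.78 for SELPLG when each library was left out, while the genes called higher in KMS11 over the whole table went from 339 to 60 without ethanol replicate 1.

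MCAM differed in level between the lines more than it differed with treatment. In KMS11 it was at 29.04 and 27.65 CPM in ethanol and at 85.07 and 84.35 CPM in fluvastatin, a log2 fold change of 1.58 ± 0.11 (adjusted p = 7.192e-05). The 2 KMS11 groups were far apart and the replicates within each were close. In H929 the counts themselves were small, 8 and 7 in ethanol and 19 and 18 in fluvastatin, and the log2 fold change was 1.48 ± 0.28 (adjusted p = 0.00237). The ratio of the summed H929 counts was 2.82, with an exact 95% interval of 1.51 to 5.53 that covers counting error only, while replicates differed by more than that. On the TPM scales MCAM was not called in H929, at 0.10 on log2(TPM + 1) (adjusted p = 0.578) and 0.50 on log2(TPM + 0.1) (adjusted p = 0.128). The H929 libraries had MCAM at 0.07 to 0.19 TPM, where adding 1 before the log shrinks any change. CBL, a ubiquitin ligase gene that overlaps MCAM on the opposite strand, had a mean of 1729.2 counts against 970.5 for MCAM. Whether RSEM was told the strand is not given in the sources used here. CBL changed by 0.30 in H929 and 0.24 in KMS11 (log2) and did not pass the threshold in either.

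Across both lines, 3 of the 10 genes were called, all higher, beside 10.4% of all genes tested in either direction (6.50% higher and 3.93% lower). Their log2 fold changes were 1.33 ± 0.15 for CD44 (adjusted p = 0.00279), 1.56 ± 0.11 for MCAM (adjusted p = 0.00026) and 1.08 ± 0.15 for SELPLG (adjusted p = 0.006348). MCAM was not called across the lines on either TPM scale (adjusted p = 0.0539 and 0.0502), nor SELPLG with a replicate block (0.0538). The median over the 10 was 0.34 beside 0.03 over all genes tested.

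**Figure D2:**
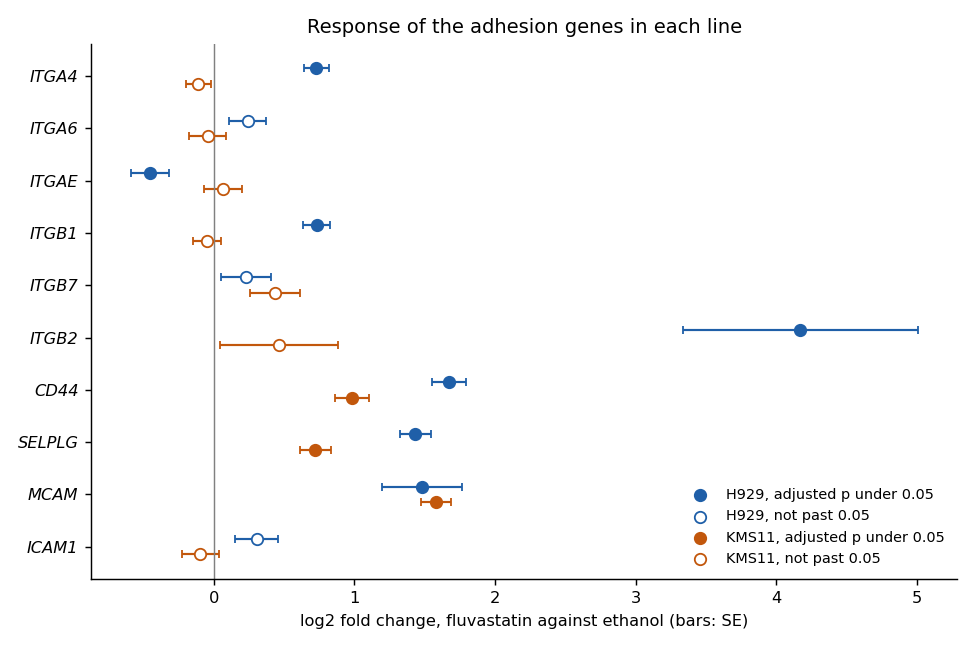
Log2 fold change with fluvastatin against ethanol (x axis; bars are standard errors) for the 10 adhesion genes (y axis) in H929 (blue) and KMS11 (orange), with filled points where the adjusted p was under 0.05. All 3 filled KMS11 points, CD44, SELPLG and MCAM, are filled in H929 too, while the fitted ITGB2 value in H929 rests on 2 counts in ethanol and depends on the prior count of the fit.

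The α4 and β1 subunits rose together in H929 and did not pass the threshold in KMS11. ITGA4 was at 684.2 and 712.9 CPM in H929 in ethanol and at 1101 and 1215 CPM in fluvastatin. KMS11 held it at 102 and 103.6 CPM in ethanol and at 93.38 and 97.27 CPM in fluvastatin. The log2 fold change was 0.73 ± 0.09 in H929 (adjusted p = 0.0001639) and -0.11 ± 0.09 in KMS11 (adjusted p = 0.4887). The KMS11 fluvastatin libraries lay slightly below the KMS11 ethanol libraries without reaching the threshold.

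ITGB1, which pairs with α4 and α6 among others, was at 254.2 and 268.9 CPM in H929 in ethanol and at 412.5 and 456.4 CPM in fluvastatin. In KMS11 it was at 291.7 and 289.2 CPM in ethanol and at 262.5 and 299.5 CPM in fluvastatin. The H929 groups did not overlap and the KMS11 groups did, and the log2 fold change was 0.73 ± 0.10 in H929 (adjusted p = 0.0003136) and -0.05 ± 0.10 in KMS11 (adjusted p = 0.8118). The ratio of ITGB1 to ITGA4 on the TPM scale stayed between 0.362 and 0.377 in the 4 H929 libraries. In the 4 KMS11 libraries it was between 2.59 and 3.09. α4 mRNA thus exceeded β1 mRNA in every H929 library and fell short of it in every KMS11 library.

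ITGB7, the other partner of α4 and the partner of αE, passed the threshold with fluvastatin in neither line. It was at 5219 and 3727 CPM in H929 in ethanol and 5714 and 4788 CPM in fluvastatin, and the groups overlapped. In KMS11 it was at 1109 and 1389 CPM in ethanol and 1862 and 1509 CPM in fluvastatin, where the groups did not overlap. The change was 0.23 ± 0.18 in H929 (log2, adjusted p = 0.3261) and 0.43 ± 0.18 in KMS11 (adjusted p = 0.194). ZNF740, a zinc finger gene on the opposite strand, had a mean of 875.8 counts against 87262.6 for ITGB7. With the trend of counts with GC content removed, ITGB7 was called higher in H929 (0.46, adjusted p = 0.0026). Over all genes, 3997 were then called higher in H929, against 2982 with the trend kept. On the TPM scale the ratio of ITGA4 to ITGB7 was 0.0905 to 0.173 in H929 and 0.0342 to 0.0618 in KMS11. β7 mRNA was thus in excess of α4 mRNA in all 8 libraries.

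ITGAE was the only one of the 10 genes called lower with fluvastatin, and this was in H929. It was at 18.65 and 21.33 CPM in ethanol and at 14.89 and 14.3 CPM in fluvastatin, a log2 fold change of -0.45 ± 0.14 (adjusted p = 0.02475). The KMS11 libraries had it at 15.29 and 15.07 CPM in ethanol and at 14.66 and 17.07 CPM in fluvastatin, with overlapping groups and a log2 fold change of 0.07 ± 0.14 (adjusted p = 0.8148). The H929 call was lost without H929 ethanol replicate 2 (adjusted p = 0.162), fluvastatin replicate 1 (0.0762) or fluvastatin replicate 2 (0.121), and under limma on log2(TPM + 0.1) (0.06). HASPIN, a histone kinase gene whose exons overlap ITGAE on the opposite strand, had a mean of 1003.6 counts against 496.5 for ITGAE and fell by 1.07 in H929 (adjusted p = 4.512e-05) with 0.07 in KMS11 (adjusted p = 0.7299), log2. If counting ignored strand, reads of these 2 genes could not be told apart.

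ITGA6, the laminin-binding α6 chain, lay between 37.88 and 53.61 CPM in the H929 libraries and between 31.49 and 34.66 CPM in the KMS11 libraries, and its groups overlapped in both lines. Its log2 fold change was 0.24 ± 0.13 in H929 (adjusted p = 0.1671) and -0.04 ± 0.13 in KMS11 (adjusted p = 0.8846). ITGB4, its epithelial partner, had a mean of at most 0.37 TPM in any group, against 36.41 to 64.96 TPM for ITGB1.

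ITGB2, the β subunit of leukocyte integrins, was counted 0 and 2 times in H929 in ethanol and 17 and 18 times in fluvastatin. In KMS11 it was counted 37 and 43 times in ethanol and 55 and 39 times in fluvastatin. The ratio of summed H929 counts, scaled for library size, was 20.0, with an exact 95% interval of 5.14 to 172 for counting error only. The edgeR test called it higher in H929 (adjusted p = 0.002992), but the level stayed at 0.40 TPM or less. Its partner ITGAL, which forms LFA-1 with it, was at 19.79 to 43.74 TPM in H929 and 15.02 to 16.61 TPM in KMS11 and rose in H929 by 0.76 ± 0.13 (log2, adjusted p = 0.001066). ITGAL was called across both lines too (0.57 ± 0.12, adjusted p = 0.02484). Its KMS11 change of 0.38 ± 0.13 was not called (adjusted p = 0.1352), nor was the difference between the responses (adjusted p = 0.1527). The other β2 partners ITGAM, ITGAX and ITGAD had means of at most 0.470 TPM in any group. ITGAX was called higher in H929 on mean counts of 0 and 14 (adjusted p = 0.003947), and across both lines (adjusted p = 0.03282).

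ICAM1, a ligand of αLβ2, was at 12.18 and 10.52 CPM in H929 in ethanol and at 14.85 and 13.29 CPM in fluvastatin. KMS11 cells had 123 and 146.7 CPM in ethanol and 139.7 and 113 CPM in fluvastatin. The H929 groups did not overlap and the KMS11 groups did, and neither change passed the threshold, at 0.31 ± 0.15 (adjusted p = 0.1355) and -0.09 ± 0.13 (adjusted p = 0.7039). With the GC trend removed ICAM1 was called in both, higher in H929 (0.53, adjusted p = 0.00166) and lower in KMS11 (-0.40, adjusted p = 0.0141). Calls over all genes rose as well. In H929 3997 were higher and 2950 lower, against 2982 and 2529 with the trend kept. In KMS11 698 were higher and 571 lower, against 339 and 70.

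Within H929, 7 of the 10 genes were called, 6 higher and 1 lower, beside 42.0% of all genes tested, 22.7% higher and 19.3% lower. The median log2 fold change of the 10 was 0.73 against 0.02 over all genes. Within KMS11, 3 of the 10 were called, all higher, with none lower by edgeR or DESeq2 or at an unadjusted p under 0.05, beside 3.12% of all genes, 2.58% higher and 0.533% lower, with a median of 0.25 against 0.00 over all genes.

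The difference between the responses was then tested itself, as the KMS11 change minus the H929 change. Of the 10 genes, 5 differed, all with the more positive change in H929, beside 23.2% of all genes (11.7% with a higher and 11.5% with a lower value in KMS11). The differences were -0.84 ± 0.12 for ITGA4 (adjusted p = 0.001781), -0.78 ± 0.14 for ITGB1 (adjusted p = 0.004208) and -0.71 ± 0.16 for SELPLG (adjusted p = 0.01098). CD44 differed by -0.69 ± 0.17 (adjusted p = 0.01796), so that both CD44 and SELPLG rose in each line and rose more in H929. ITGB2 was called as well (adjusted p = 0.02377), from the small counts given above. For MCAM the difference was 0.10 ± 0.37 (adjusted p = 0.9265), an error too wide to show equal responses. Of 18 alternatives, 1 called it, limma on log2(TPM + 1), at 1.21 (adjusted p = 0.000792). MCAM was at 0.07 to 0.19 TPM in H929, where adding 1 before the log shrinks any change. That call therefore does not show unequal responses either. For ITGAE the difference was 0.52 ± 0.19 (adjusted p = 0.07974).

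The ITGA4 and ITGB1 differences were called under every alternative run. Limma on log2(TPM + 0.1) did not call the ITGB2 difference (adjusted p = 0.114). The CD44 difference was not called without H929 ethanol replicate 2 (adjusted p = 0.0594), H929 fluvastatin replicate 2 (0.0671), KMS11 ethanol replicate 1 (0.0594) or KMS11 ethanol replicate 2 (0.0897), nor the SELPLG difference without KMS11 ethanol replicate 2 (0.0576), nor the ITGB2 difference without H929 ethanol replicate 1 (0.104), H929 fluvastatin replicate 2 (0.0556), KMS11 ethanol replicate 1 (0.0555) or KMS11 ethanol replicate 2 (0.0659).

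In ethanol alone the 2 lines carried different sets of adhesion transcripts. Of the 10 genes, 8 differed, 3 higher and 5 lower in KMS11, beside 72.0% of all genes tested (35.6% higher and 36.4% lower), so that a difference at most genes was the rule between these lines. MCAM was higher in KMS11 by 6.66 ± 0.18 on the log2 scale (adjusted p = 1.989e-09), a ratio of 103 on summed counts with an exact 95% interval of 62.2 to 184 for counting error only. ICAM1 was higher by 3.57 ± 0.15 (adjusted p = 3.164e-08), or 11.9-fold on mean CPM. ITGB2 was counted 80 times in KMS11 and 2 times in H929, a ratio of 29.0 with an interval of 7.78 to 244 on the same terms.

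ITGA4 was lower in KMS11 by -2.76 ± 0.09 (adjusted p = 6.992e-09) and CD44 by -2.39 ± 0.13 (adjusted p = 1.426e-07), which on mean CPM made H929 higher by 6.79-fold and 5.23-fold. ITGB7 differed by -1.84 ± 0.18 (adjusted p = 1.041e-05) and SELPLG by -1.08 ± 0.11 (adjusted p = 1.437e-05). The GC trend bore on SELPLG, whose difference was -0.16 (adjusted p = 0.185) once the trend was removed. ITGAE differed by -0.40 ± 0.14 (adjusted p = 0.02401), and its direction turned to 0.16 on both TPM scales. The ITGAE call was also lost without H929 ethanol replicate 2 (adjusted p = 0.168), KMS11 ethanol replicate 1 (0.104) or KMS11 ethanol replicate 2 (0.121). ITGB1 (0.15 ± 0.10, adjusted p = 0.1871) and ITGA6 (-0.27 ± 0.13, adjusted p = 0.08257) did not pass the threshold. On the TPM scales ITGB1 was called higher in KMS11, by 0.64 (adjusted p = 0.000743) and 0.65 (adjusted p = 0.00402), and ITGA6 turned to 0.26 and 0.31 without a call. ITGA6 was called lower in KMS11 with the GC trend removed (-0.38, adjusted p = 0.00364), with a replicate block (-0.27, adjusted p = 0.026) and in a fit of the ethanol libraries alone (-0.28, adjusted p = 0.0297). The median of all genes moved to 0.44 on log2(TPM + 1) and 0.26 on log2(TPM + 0.1).

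All 18 α and 8 β subunits were then set beside each other, to see which chains had mRNA in the cells. Pairing of the proteins was not measured. ITGA4 made up 54.1% and 55.2% of the summed α subunit TPM in H929 in ethanol, and 61.4% and 65.6% in fluvastatin. In KMS11 it made up 27.59% and 27.04% in ethanol and 24.4% and 22.7% in fluvastatin, where ITGAE, ITGAL and ITGAV took much of the rest. ITGA8 came next after ITGA4 in H929 in ethanol, at 16.2% and 15.9%, and made up 8.97% and 9.05% in fluvastatin. Its log2 fold change in H929 was -0.35 ± 0.10 (adjusted p = 0.01679). In ethanol ITGA8 was lower in KMS11 by -4.00 ± 0.11 (adjusted p = 2.273e-09). The summed α level itself was 185.6 and 181.9 TPM in H929 in ethanol, 257.4 and 269.7 TPM in H929 in fluvastatin, and 66.18 to 81.44 TPM in KMS11. ITGB7 made up 92.4% to 94.3% of β subunit TPM in H929 and 76.9% to 84.1% in KMS11. ITGA5, the α subunit of the classical fibronectin receptor, had a mean of at most 0.060 TPM in any group, below ITGA4 in both lines.

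**Figure D3:**
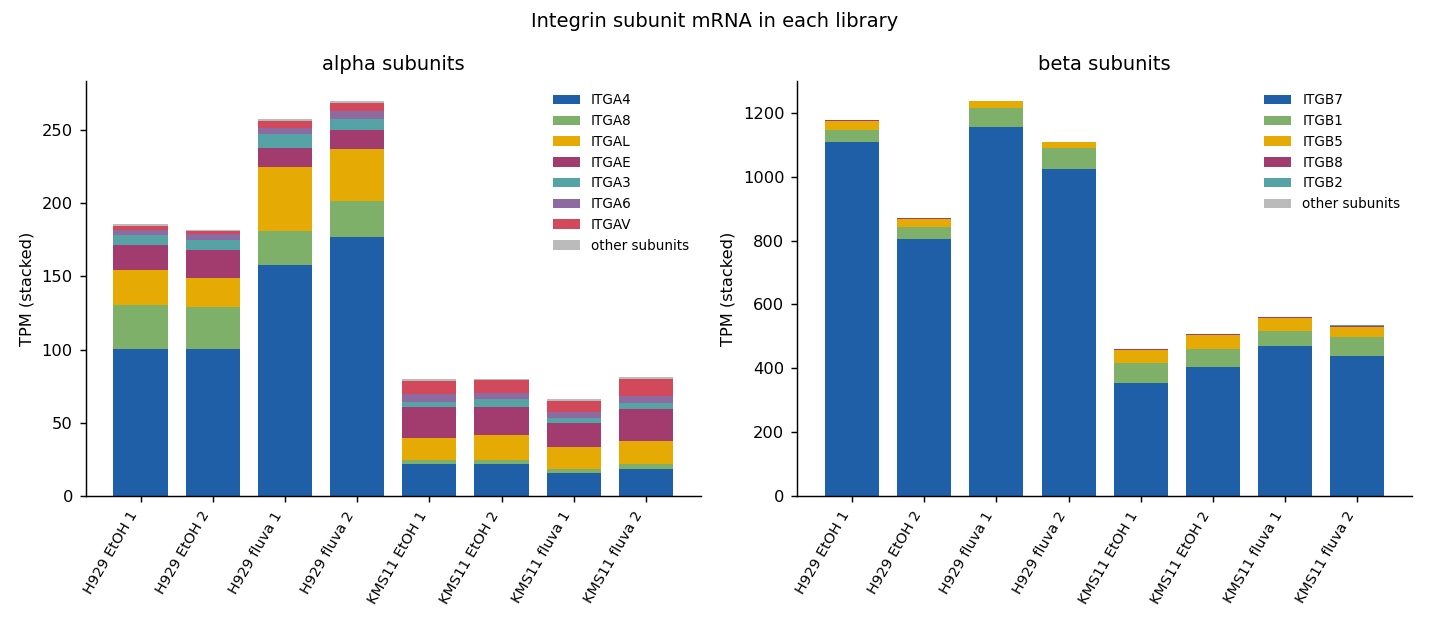
Stacked TPM of the α subunits (left) and β subunits (right) in each of the 8 libraries (x axis; EtOH, ethanol; fluva, fluvastatin; 1 and 2, replicates), with linear y axes that differ between the panels. ITGA4 is the largest α block in each H929 library, and ITGB7 is the largest β block in each of the 8 libraries.

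The wider list of integrin subunits, which includes the 6 above, had 20 of 26 genes tested. In H929, 7 were higher and 4 lower, beside 22.7% and 19.3% of all genes, so that the share lower was close to that background. Among those higher, ITGB2, ITGB3 and ITGAX had mean counts of only 1, 0 and 0 in H929 in ethanol. In KMS11 none was called by edgeR or by DESeq2, with 4 higher at an unadjusted p under 0.05 in edgeR. Outside the set, ITGAV, the αV chain of vitronectin receptors, rose by 1.26 ± 0.15 in H929 (adjusted p = 0.0001294), from a mean of 25.1 to 60.1 CPM. ITGB8 fell by 1.06 ± 0.30 (adjusted p = 0.01722) and ITGB5 fell by 0.46 ± 0.12 (adjusted p = 0.01077), both β chains that pair with αV. Among other β partners of αV, ITGB1 rose in H929, as given above. ITGB3 was called higher there on mean counts of 0 and 20.5 (adjusted p = 0.000459). The αV rise in H929 was larger than in KMS11 by the test of the difference (-1.07 ± 0.20, adjusted p = 0.005231).

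Among 33 tested genes of 37 for integrin activation and focal adhesions, 16 were higher and 5 lower in H929, beside 22.7% and 19.3% of all genes, and 1 was higher and none lower in KMS11, beside 2.58% and 0.533%. DESeq2 called 4 higher and 1 lower in KMS11, and 7 higher and 2 lower were under 0.05 in edgeR before adjustment. PXN, the focal adhesion scaffold paxillin, rose by 2.38 ± 0.14 in H929 (adjusted p = 3.603e-06), from 11.3 ± 0.46 to 58.5 ± 5.96 CPM (SD, n = 2). APBB1IP, the Rap1 effector RIAM that brings talin to integrins, rose by 1.97 ± 0.15 (adjusted p = 1.265e-05). FLNA, the actin crosslinker filamin A, rose by 1.94 ± 0.24 (adjusted p = 0.0002007), and FERMT2, kindlin-2, by 1.44 ± 0.25 (adjusted p = 0.001343). The one KMS11 call was ZYX, the focal adhesion protein zyxin, at 1.21 ± 0.24 (adjusted p = 0.02996). ZYX was called higher in H929 too (0.85 ± 0.24, adjusted p = 0.01713). FLNA changed by 0.97 ± 0.23 in KMS11 without a call (adjusted p = 0.05703). Across both lines FLNA (1.46 ± 0.25, adjusted p = 0.01322) and ZYX (1.03 ± 0.19, adjusted p = 0.01888) were called. The difference between the responses was called for neither (adjusted p = 0.0584 for FLNA and 0.4693 for ZYX). PXN differed between the responses by -2.13 ± 0.22 (adjusted p = 0.0003946).

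Of the ligands and counter-receptors, 16 of 28 were tested. In H929, 4 were higher and 1 lower, a share higher that is close to the 22.7% of all genes, and in KMS11, 1 was higher and none lower, beside 2.58% and 0.533% of all genes. FN1, fibronectin, rose in both, by 2.39 ± 0.13 in H929 (adjusted p = 2.527e-06) and 0.74 ± 0.11 in KMS11 (adjusted p = 0.0078). CDH1, E-cadherin and the ligand of αEβ7, rose in H929 by 2.85 ± 0.28 (adjusted p = 5.189e-05), from 1.05 to 7.55 CPM on average. TNC, the matrix protein tenascin-C, rose in H929 by 3.45 ± 0.27 (adjusted p = 5.413e-05), from 0.911 to 10.0 CPM. TNC was at 0 counts in all KMS11 libraries. VCAM1 and MADCAM1, the vascular ligands of α4 integrins, and SELP and SELE were at a mean of 0.030 TPM or less in every group.

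Among tetraspanins and CD44 partners, 20 of 24 were tested, 8 higher and 2 lower in H929 (all genes: 22.7% and 19.3%) and 2 higher and none lower in KMS11 (2.58% and 0.533%). EZR, ezrin, which links the CD44 tail to actin, rose by 1.90 ± 0.09 in H929 (adjusted p = 1.576e-06) and 0.99 ± 0.09 in KMS11 (adjusted p = 0.0003131). CD9, a tetraspanin that joins integrin complexes, rose in H929 by 2.98 ± 0.33 (adjusted p = 0.0001012), from a mean count of 8.5 to 59.5, and stood at 71.8 CPM in KMS11 in ethanol. CD151, the laminin-integrin tetraspanin, rose in KMS11 by 1.28 ± 0.22 (adjusted p = 0.01319). ESRP1, a splicing factor of CD44 exons, was called higher in H929 on mean counts of 1.0 and 9.0.

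Among genes that glycosylate or sulfate selectin ligands such as PSGL-1, 16 of 18 were tested, 6 higher and 2 lower in H929 (all genes: 22.7% and 19.3%) and 1 higher and 1 lower in KMS11 (2.58% and 0.533%). GALNT3, which starts O-glycans, rose by 1.99 ± 0.10 in H929 (adjusted p = 2.035e-06) and 0.77 ± 0.11 in KMS11 (adjusted p = 0.005503). TPST2, a tyrosine sulfotransferase, rose in H929 by 1.09 ± 0.09 (adjusted p = 2.386e-05) while TPST1 fell by 0.58 ± 0.12 (adjusted p = 0.003632). ST3GAL6, a sialyltransferase, fell by 0.68 ± 0.16 in KMS11 (adjusted p = 0.04896).

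Of other adhesion molecules, 20 of 23 were tested, 8 higher and 2 lower in H929 (all genes: 22.7% and 19.3%) and 1 higher and none lower in KMS11 (2.58% and 0.533%). SDC1, the plasma cell syndecan CD138, fell by 1.08 ± 0.17 in H929 (adjusted p = 0.0008624), from 686.6 ± 93.3 to 324.8 ± 71.9 CPM (SD, n = 2), and was at 182.1 and 207.2 CPM on average in KMS11 in ethanol and fluvastatin. NECTIN3 rose in H929 by 1.14 ± 0.10 (adjusted p = 3.747e-05) and ALCAM, CD166, by 0.97 ± 0.18 (adjusted p = 0.001843). L1CAM, a neural adhesion molecule, was the KMS11 call, at 3.22 ± 0.33 (adjusted p = 0.0006658), from 0.563 to 5.29 CPM. In KMS11 no gene of the ligand, tetraspanin or other adhesion lists was lower by DESeq2 either, and at an unadjusted p under 0.05 in edgeR 2, 1 and 0 were lower. The median log2 fold changes of the 6 lists lay between 0.08 and 0.53 in H929 and between -0.01 and 0.25 for KMS11, beside 0.02 and 0.00 over all genes.

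**Figure D4:**
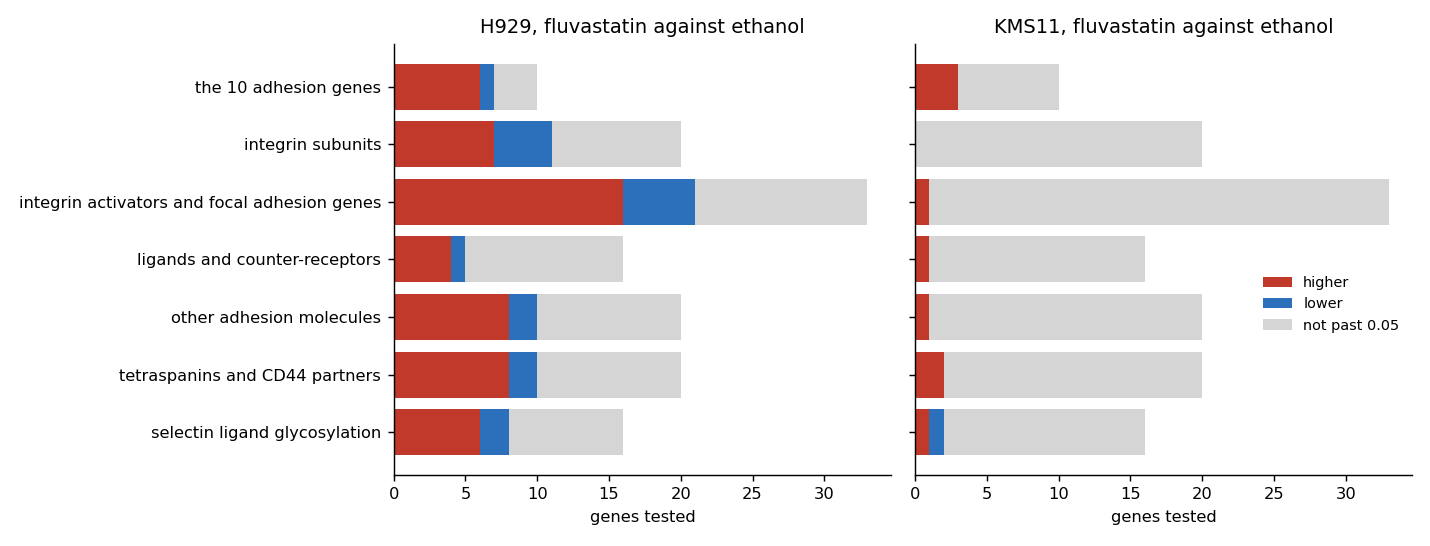
Number of tested genes (x axis) called higher (red), called lower (blue) or not past an adjusted p of 0.05 (grey) with fluvastatin in H929 (left) and KMS11 (right), for the 10 adhesion genes and 6 lists of related genes (y axis). In H929 each list has both red and blue, and in KMS11 the integrin subunit bar is all grey.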

How the data were processed

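RNA from 8 cultures of H929 and KMS11 cells was sequenced by the authors as stranded, ribosome-depleted total RNA in paired-end reads, aligned to GRCh38 (hg38) with STAR 2.5.2b and quantified with RSEM 1.3.0, per the labels and the methods. For each gene the authors deposited the expected count, without normalization, and TPM, which adjusts for effective length. FPKM was not used. Names and positions came from GENCODE 44, on the same build, which holds 57392 of the 58219 identifiers.

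Expected counts were rounded, filtered with filterByExpr (minimum count 10, minimum total 15), scaled by TMM and tested in R 4.3.3 with edgeR 4.0.16. The fit across the lines had terms for line and treatment, and the others came from the 4 group means. Standard errors were obtained as |log2 fold change|/√F. Alternatives used DESeq2 1.42.0, limma 3.58.1 on log2(TPM + 1) and log2(TPM + 0.1), other scalings, filters and gene sets, removal of the GC trend, a replicate block and leaving out each library. The functions were tested on simulated data: estimates were unbiased, false calls ran somewhat above the nominal share, and the test of the difference between lines missed many simulated 2-fold changes, so that a difference not called is weak evidence of equal responses. The criterion for passing was changed to bias and false calls after that recovery was seen. Genes named were all 10 members, the partner subunits, and from each list up to 4 called genes per comparison with the largest change and a mean log2 CPM not under 0. The members and lists were chosen with earlier results of these data known. Results on withheld items are not reported here.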

Additional observations from a re-analysis of the deposited data

Results flagged for a closer look

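The responses of 5 genes to fluvastatin differed between the lines by the test of the difference itself, given as KMS11 minus H929 on the log2 scale with 2 libraries per group. The differences were -0.84 for ITGA4, -0.78 for ITGB1, -3.71 for ITGB2, -0.69 for CD44 and -0.71 for SELPLG. The ITGB2 value is fitted on 2 counts in H929 in ethanol and is no measure of size.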

How the results depend on the processing

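The edgeR and DESeq2 fits, other scalings, filters and gene sets gave the same direction for all genes with a call, and 870 of 939 values kept their direction and side of the threshold. Without the cell line term, 0 of the 10 genes were called across both lines, against 3 with it. The spread between the lines then enters the error. Over all 13129 genes tested, 4 were then higher and 0 lower, against 854 and 516 with the term. Taken as the mean of the within-line changes, 6 of the 10 were called, which adds ITGA4, ITGB1 and ITGB2. Over all genes, 2385 were then higher and 2009 lower. Under limma on log2(TPM + 0.1), 0 of the 10 were called in KMS11, against 3 in the main fit. Of 16332 genes, 46 were then higher and 4 lower, against 339 and 70 of 13129 in the main fit. The cause was not tested. Leaving out each library in turn lost some calls, as given above for CD44, SELPLG, ITGAE and ITGB2. The differences between the responses then ranged from -0.907 to -0.767 for ITGA4 and from -0.887 to -0.669 for ITGB1. For CD44 they ranged from -0.834 to -0.527 and for SELPLG from -0.796 to -0.623. Under log2(TPM + 1) and log2(TPM + 0.1), MCAM was called neither in H929 nor across both lines, and under the latter ITGAE was not called in H929. The stricter filter and log2(TPM + 1) leave out ITGB2.

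Some values changed sign, and the cause was not tested. Under log2(TPM + 1) they were ICAM1 across both lines (-0.017), ITGAE in KMS11 (-0.082), and ITGA6 (0.258) and ITGAE (0.155) between the lines in ethanol; under log2(TPM + 0.1), ITGAE in KMS11 (-0.086), and ITGA6 (0.308) and ITGAE (0.163) in ethanol. Without the cell line term ICAM1 was at -0.058. With the GC trend removed they were ITGA6 (0.010) and ITGB1 (0.018) in KMS11 and the differences of ITGB7 (-0.355) and MCAM (-0.653). Leaving out each library, KMS11 values ranged from -0.262 to 0.007 for ICAM1, -0.159 to 0.017 for ITGA6, -0.191 to 0.038 for ITGB1, -0.079 to 0.845 for ITGB2 and -0.095 to 0.162 for ITGAE, and differences from -0.060 to 0.423 for ITGB7 and -0.004 to 0.199 for MCAM. Of these, ITGAE in ethanol alone had been called. Removing the GC trend moved the median of all genes to 0.18 in ethanol and -0.10 for the difference, and log2(TPM + 1) moved it to -0.12 in KMS11.

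Replicates with the same number deviated together in H929 (correlation 0.511) and not in KMS11 (0.003), so the numbers were not taken to pair the samples. With a replicate block 2 of the 10 genes were called across both lines (SELPLG at adjusted p = 0.0538) and 7 in H929. In KMS11 4 were called (ITGB7 at 0.43, adjusted p = 0.0429), with 5 for the difference and 9 in ethanol. Over all 13129 genes the block called 143 higher and 15 lower across both lines, against 854 and 516 without it. In KMS11 it called 1161 and 476, against 339 and 70. The H929 calls were 3382 and 3044, against 2982 and 2529. For the difference they were 2252 and 1975, against 1542 and 1506, and in ethanol 4943 and 5102, against 4680 and 4774. Counts under 50 in H929 for ITGB2 and MCAM limit what those 2 genes can show, and 2 replicates per group limit the rest.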
